A study of Caenorhabditis elegans with 12 samples.

Results

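RNA of Caenorhabditis elegans grown at 23 C was compared between the 4th and the 3rd generation, as 6 pairs of libraries matched for genotype and RNA fraction. All 12 libraries of the series enter the comparison, 6 from generation 3 and 6 from generation 4. The animals were young adult hermaphrodites, either the laboratory wild type strain N2 or the mutant hrde-1(tm1200). From each genotype and generation there was 1 library of whole-animal RNA, 1 of nuclear-enriched RNA and 1 of cytoplasmic-enriched RNA. Both generations were kept at 23 C, so no library of another temperature or of generation 1 or 2 serves as a baseline here. The study's title sets its subject as the retrotransposon transcripts that nuclear RNAi targets, in space and over time, and the generation is the time axis of these libraries. Every genotype and fraction has 1 library per generation, so the generation difference was tested over the 6 pairs. Nothing in the labels tells if whole, nuclear and cytoplasmic RNA of 1 genotype and generation came from 1 culture. If they did, the 6 pairs hold 2 independent comparisons, 1 per genotype, and p-values over 6 pairs are then too small. A generation difference and a difference between 2 cultures or harvests therefore cannot be told apart, and a p-value covers the spread among these libraries, which may be technical.

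HRDE-1 is a germline Argonaute protein that works in the nucleus. It carries small RNAs to nascent transcripts, which represses transcription and places repressive histone marks, and this silencing can be inherited over generations. Among its known targets are LTR retrotransposons, and in animals that lack HRDE-1 silencing is lost and fertility is known to decline over generations at raised temperature.

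The measurement is the authors' normalized coverage in windows of 1000 bases. Of 100257 windows, 16771 had a mean of at least 10 over the 12 libraries and were tested. The lowest mean inside that limit was 10.01 and the highest outside it was 9.998. These windows held 83.6% to 92.5% of each library's coverage. Values moved in steps above a floor of 0.1, and 1 step, taken as 1 read, was worth 1.05 to 4.58. The libraries then held 191222 to 908166 read equivalents, the fewest in N2 cytoplasmic RNA with 191222 in generation 3 and 263393 in generation 4. A coverage of 10 rested on 2.16 to 9.41 reads. Generation 4 was deeper in 5 of 6 pairs, by 1.13 to 1.46 times, and shallower in hrde-1 cytoplasmic RNA, at 0.695 times the depth of generation 3. Names and annotations of genes are not given below, since the table's positions run on an assembly that is not named in the sources used here. Windows are therefore named by chromosome, first base and last base, and neither the hrde-1 gene nor marker genes of young adults were checked.

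Few windows passed the test between the generations, and most of those that did were lower in generation 4. In these samples of many cells, fewer cells of a type and less RNA per cell cannot be told apart. With limma on log2(coverage + 1), the pair as a block and Benjamini-Hochberg adjustment over all tested windows, 36 windows (0.215% of those tested) passed an adjusted p of 0.05. Of these, 32 (0.191%) fell and 4 (0.0239%) rose in generation 4. They lie in 27 regions, 24 lower and 3 higher, and 9 regions hold more than 1 called window. Each of the 36 moved the same way in all 6 pairs, as did 1198 of all tested windows (7.14%), 515 higher and 683 lower. In 19 of the 36, the 6 libraries of one generation did not overlap the 6 of the other, which held for 72 tested windows (0.429%). Over all tested windows the median difference was 0.04 on the log2 scale, with an interquartile range of -0.16 to 0.23, and 55.5% were above 0. An unadjusted p under 0.05 in limma was reached by 1673 windows, 745 higher and 928 lower, so windows that did not pass may still differ. The count of calls depends on the pairs. It was 0 without the N2 whole pair, 2 without the N2 nuclear pair, 1 without the hrde-1 whole pair, 3 without the hrde-1 nuclear pair and 6 without the hrde-1 cytoplasmic pair, but 66 without the N2 cytoplasmic pair. None of the 36 passed in all 6 of those fits, in which their highest adjusted p in limma ranged from 0.0654 to 0.204. None changed direction, but this was fixed in advance, since all 6 pairs of each window had the same sign. Without both cytoplasmic pairs, a choice made after seeing the data, 149 windows passed, 52 higher and 97 lower, and they included all 36. Quantile normalization gave 34 higher and 104 lower calls, also with all 36 among them.

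The largest fall was on chromosome V, in the 2 adjoining windows V:4652001-4653000 and V:4653001-4654000. In the second of these, coverage in generation 3 was 137 in whole, 224 in nuclear and 160.4 in cytoplasmic RNA of N2, and 130.1, 179 and 107 in the same fractions of hrde-1. In generation 4 it was 35.0, 33.8 and 9.54 in N2 and 38.5, 63.9 and 39.3 in hrde-1. All 6 libraries of generation 3 lay above all 6 of generation 4. The mean was 156 ± 41.7 (SD, n = 6) in generation 3 and 36.7 ± 17.3 in generation 4, and the log2 difference was -2.20 (SE 0.27, limma adjusted p = 0.01). The first window went from 19.7, 26.0 and 18.4 in N2 and 22.7, 39.6 and 14.1 in hrde-1 to 0.1, 3.78 and 3.25 in N2 and 5.05, 7.75 and 0.1 in hrde-1. A value of 0.1 is the floor, reached in N2 whole and hrde-1 cytoplasmic RNA of generation 4. Its 84 read equivalents in generation 3 stood against 14 in generation 4, and its log2 difference was -2.81 (SE 0.39, limma adjusted p = 0.0158).

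A second pair of adjoining windows, II:11012001-11013000 and II:11013001-11014000, fell by a similar factor. The first had 97.8, 156 and 101 in whole, nuclear and cytoplasmic RNA of N2 in generation 3, and 111, 176 and 74.9 in hrde-1. Generation 4 had 12.1, 33.1 and 6.40 in N2 and 38.9, 41.8 and 25.4 in hrde-1. The groups did not overlap, and the mean above the floor was 4.57 times higher in generation 3 (log2 difference -2.33, SE 0.26, limma adjusted p = 0.00926, the lowest of all windows). In II:11013001-11014000 the 3 N2 libraries went from 49.0, 77.9 and 27.6 to 4.91, 4.31 and 3.25, and the 3 hrde-1 libraries from 37.1, 75.3 and 41.2 to 12.5, 21.8 and 18.5. Here too every library of generation 3 was above every library of generation 4. The N2 cytoplasmic value of generation 4 rests on 1 read.

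On chromosome IV, IV:12108001-12109000 and IV:12109001-12110000 fell. In the second, generation 3 had 129.9, 188 and 119 in N2 and 123, 162 and 88.0 in hrde-1, and generation 4 had 24.2, 32.7 and 9.54 in N2 and 32.3, 56.2 and 62.3 in hrde-1. In this second window the groups did not overlap, and the smallest fall was in hrde-1 cytoplasmic RNA. IV:12108001-12109000 ranged from 23.0 to 49.6 in generation 3 and from 9.54 to 23.6 in generation 4, so its groups overlapped. The log2 differences of IV:12108001-12109000 and IV:12109001-12110000 were -1.32 (SE 0.20, limma adjusted p = 0.0199) and -2.05 (SE 0.28, limma adjusted p = 0.0158). The next window, IV:12110001-12111000, was at 13.2 to 24.9 in generation 3 and 0.1 to 9.31 in generation 4, but did not pass (log2 difference -2.26, SE 0.46, limma adjusted p = 0.0688).

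**Figure D1:**
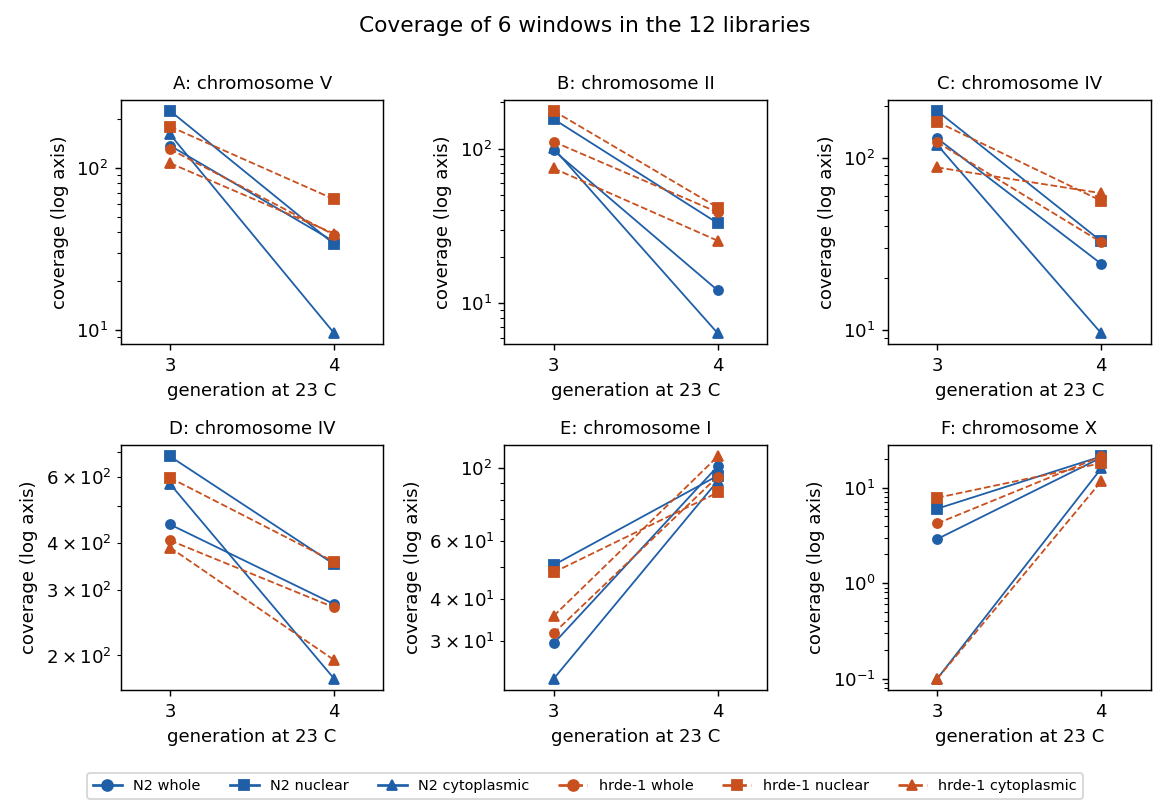
Coverage (log axis) in generation 3 and generation 4 of 6 called windows, with 1 line per pair, solid for N2 and dashed for hrde-1. The panels show V:4653001-4654000 (A), II:11012001-11013000 (B), IV:12109001-12110000 (C), IV:1721001-1722000 (D), I:6844001-6845000 (E) and X:5824001-5825000 (F); in A to D all 6 lines go down, in E and F all 6 go up, and the N2 cytoplasmic line is the steepest in A to D.

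Windows V:10421001-10422000 and V:10424001-10425000, with 2 windows between them, fell as well. The first ranged from 15.1 to 40.6 in generation 3 and from 1.67 to 17.3 in generation 4 (log2 difference -2.15, SE 0.32, limma adjusted p = 0.0158). The second ranged from 16.4 to 41.5 and from 1.67 to 23.1 (log2 difference -2.29, SE 0.35, limma adjusted p = 0.0175). In both, hrde-1 nuclear RNA of generation 4 reached into the range of generation 3, so the groups overlapped although each pair fell. In 4 libraries of generation 4 the windows held exactly the same value above the floor, which no other pair of called windows did in 3 or more libraries. In N2 cytoplasmic RNA of generation 4 both held 1.67, less than a whole step (3.15) above the floor. How reads with several matching positions were counted is not given, and sharing of reads was not tested. The 2 windows may share reads, so they may not be separate observations and are reported as uncertain. The totals above count them as separate windows and as separate regions.

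Other lower windows ranged from low to high in level. IV:9156001-9157000 went from 22.4, 46.1 and 55.1 in N2 and 22.0, 34.8 and 33.8 in hrde-1 to 10.9, 15.9 and 12.7 and 8.76, 12.9 and 16.2, with no overlap (log2 difference -1.35, SE 0.21, limma adjusted p = 0.0235). The adjoining windows IV:1721001-1722000 and IV:1722001-1723000 were among the most abundant. The first went from 448, 680.4 and 574 in N2 and 406, 596 and 388 in hrde-1 to 274, 350.4 and 173 and 269, 356 and 194, again with no overlap (log2 difference -0.95, SE 0.13, limma adjusted p = 0.0158). Both windows of that region were 1.91 to 1.93 times higher in generation 3. II:14656001-14657000 was at 61.7 to 109 in generation 3 and 19.0 to 64.3 in generation 4, ranges that overlapped (log2 difference -1.004, SE 0.18, limma adjusted p = 0.0434). Among windows of still higher level, IV:10217001-10218000 fell from 787 ± 112 (SD, n = 6) to 491 ± 121, X:422001-423000 from 826 ± 179 to 523 ± 165, and II:4870001-4871000 from 1156 ± 246 to 759.7 ± 216. The ranges of the last 2 windows overlapped between generations.

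Calls were more frequent at higher levels. Of 6928 windows with a mean of 10 to 20, 4 were called (0.0577%), while 5 of 131 windows with a mean of 500 or more were called (3.82%). The median standard error of the log2 difference was 0.31 in the first and 0.08 in the second group. The 32 lower windows together held 0.938%, 1.19% and 1.01% of the coverage in whole, nuclear and cytoplasmic RNA of N2 in generation 3, and 0.578%, 0.712% and 0.405% in generation 4. In hrde-1 they held 0.884%, 1.20% and 0.696% in generation 3 and 0.608%, 0.783% and 0.477% in generation 4. These shares describe the windows that the test picked and are not a further test.

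**Figure D2:**
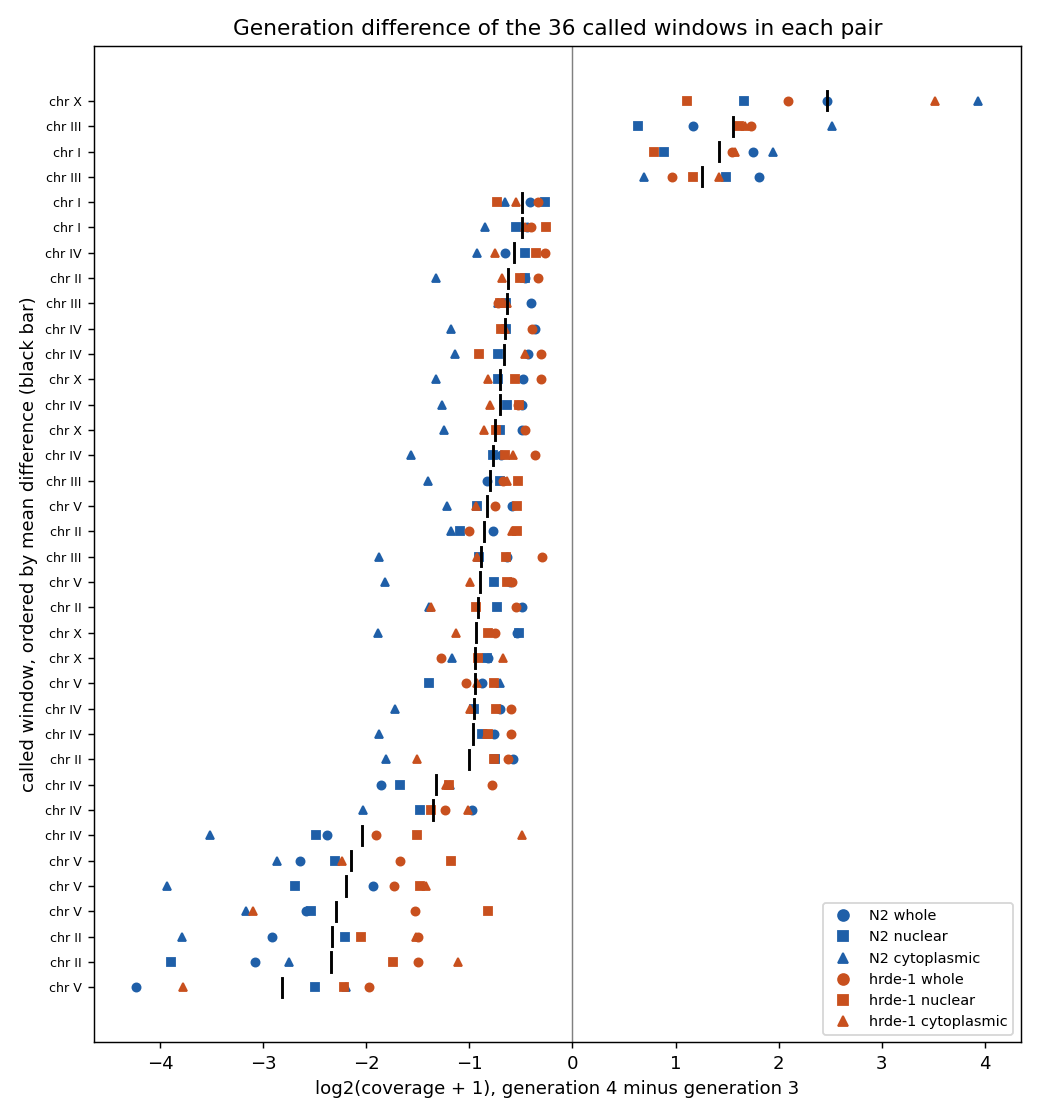
Difference of log2(coverage + 1), generation 4 minus generation 3, in each of the 6 pairs for the 36 called windows, ordered by their mean (black bar), with colour for genotype and marker shape for fraction. The 4 windows to the right of 0 rose and the 32 to the left fell, every pair lies on the side of its window's mean, and the N2 cytoplasmic pair is often farthest from 0.

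The window with the strongest fall and the called window beside it had hardly any coverage on either side, so the adjoining windows could hardly show a fall. Around V:4652001-4654000, mean coverage dropped from 23.4 and 156 to 3.34 and 36.7 in the 2 called windows, while the window just before was at 0.33 and 0.10 and the window just after at 0.65 and 1.25 in generations 3 and 4. Tested windows next to called ones that did not pass themselves numbered 28. Of these, 24 were lower in generation 4, beside 7456 of all 16771 tested windows. Their median log2 difference was -0.47, against 0.04 over all tested windows. These neighbours adjoin windows picked for their change, so their direction is not a separate result.

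**Figure D3:**
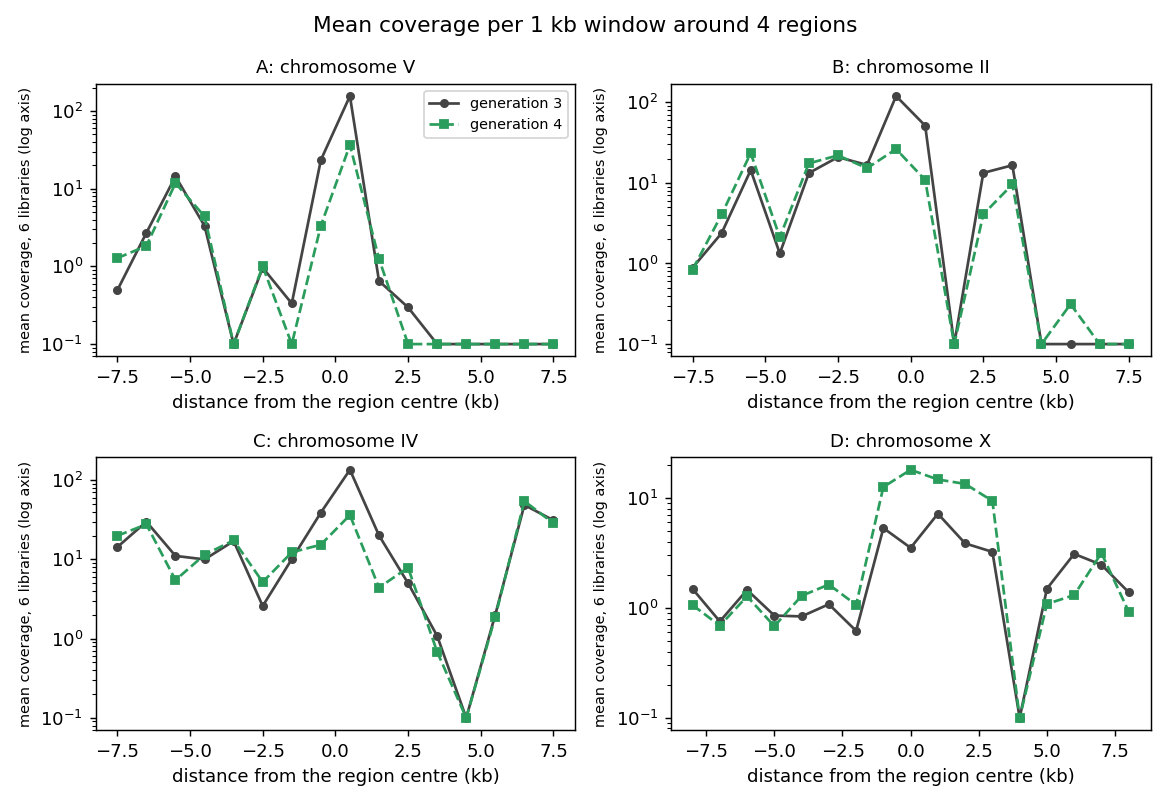
Mean coverage of 6 libraries per generation (log axis) in windows of 1000 bases against the distance in kb from the centre of 4 regions: V:4652001-4654000 (A), II:11012001-11014000 (B), IV:12108001-12110000 (C) and X:5824001-5825000 (D). The generations separate at the centre in each panel and come close to each other farther out, apart from windows near the floor of 0.1, and in D generation 4 is higher over 8 windows in a row.

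The regions that rose were 3 in number. I:6844001-6845000 went from 29.4, 50.8 and 23.0 in whole, nuclear and cytoplasmic RNA of N2 and 31.6, 48.3 and 35.6 in hrde-1 to 101, 94.8 and 91.4 in N2 and 94.2, 84.3 and 108 in hrde-1. The generations did not overlap, the 6 libraries of generation 4 lay close together, and the means were 36.5 ± 10.96 (SD, n = 6) and 95.7 ± 8.28. Its log2 difference was 1.42 (SE 0.17, limma adjusted p = 0.01), and it was close to the same in N2 (1.53) and hrde-1 (1.31). The lower window I:6836001-6837000 lies 8 windows before it on the same chromosome, and it went from 406 to 490.1 in generation 3 to 246 to 375 in generation 4.

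In the adjoining windows III:5107001-5108000 and III:5108001-5109000 all 12 pair differences were positive. The first had 15.5, 17.8 and 23.0 in N2 and 27.5, 19.4 and 13.2 in hrde-1 in generation 3, and 56.7, 51.6 and 37.9 and 54.6, 44.7 and 37.0 in generation 4, with no overlap. The log2 differences of the region were 1.26 (SE 0.19, limma adjusted p = 0.0175) and 1.56 (SE 0.23, limma adjusted p = 0.0173). X:5824001-5825000 had the largest rise and the lowest level of the called windows. It was at 2.89 and 6.0 in whole and nuclear RNA of N2, 4.21 and 7.81 in those of hrde-1 and at the floor in both cytoplasmic libraries of generation 3. In generation 4 it was at 20.6, 21.1 and 15.8 in N2 and 21.1, 18.0 and 11.6 in hrde-1, all above generation 3 (log2 difference 2.46, SE 0.43, limma adjusted p = 0.0403). That rests on 14 read equivalents in generation 3 and 78 in generation 4. Its mean rose from 3.52 to 18.0, and the window before it and the 3 windows after it had means of 3.23 to 7.19 in generation 3 and 9.40 to 14.7 in generation 4.

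Another 6 windows, the ones with the smallest p among uncalled windows higher in all 6 pairs, are given as values. V:12353001-12354000 had means of 22.5 and 45.1 in generations 3 and 4 (limma adjusted p = 0.0522), and its ranges of 15.4 to 35.7 and 34.7 to 55.8 overlapped. II:9059001-9060000 had 45.3 and 78.2, I:6156001-6157000 had 27.8 and 55.5, III:344001-345000 had 18.2 and 33.4, X:1504001-1505000 had 29.8 and 51.2, and V:11916001-11917000 had 10.7 and 23.6. The adjusted p of these 5 in limma lay between 0.0688 and 0.108. The generations did not overlap in I:6156001-6157000 and III:344001-345000, and overlapped in the other 4 windows of the 6.

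In N2 alone, 6 windows passed (0.0358%), 1 higher and 5 lower. At an unadjusted p under 0.05 in limma, 1319 were higher and 719 lower. Of the 5, 4 were those of the regions above: II:11013001-11014000 with a log2 difference of -3.24, II:11012001-11013000 with -2.97, V:4653001-4654000 with -2.86 and IV:12109001-12110000 with -2.79, each at a limma adjusted p of 0.00165. The hrde-1 differences of these 4 windows were -1.45, -1.69, -1.54 and -1.30, with the 3 pairs lower in each but a limma adjusted p of 0.59 to 0.68. V:6407001-6408000 went from 175, 251 and 373 to 99.4, 131 and 139 in N2 (log2 difference -1.06, SE 0.15, limma adjusted p = 0.0376), and from 164, 181 and 275 to 132, 176 and 220.1 in hrde-1. The 1 higher window, V:10021001-10022000, went from 176, 144 and 110.03 to 410.5, 306 and 301 in N2 (log2 difference 1.25, SE 0.14, limma adjusted p = 0.00532). In hrde-1 it was at 251, 222 and 275 in generation 3 and 343, 234 and 247 in generation 4, so N2 of generation 3 was the lowest of the 4 groups there. Without both cytoplasmic pairs N2 had 45 calls, with the 6 among them. The count of calls in N2 ranged from 5 to 8 when a pair was left out of the fit. If the 3 fractions came from 1 culture, N2 holds 1 independent comparison, and these p-values are too small.

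In hrde-1 alone no window passed (0%), with 792 at an unadjusted p under 0.05 (212 higher, 580 lower) and a lowest limma adjusted p of 0.59. The windows with the smallest p, given as values, were I:6844001-6845000, III:5108001-5109000 and V:11912001-11913000 among the higher ones, and II:11012001-11013000, X:6409001-6410000 and I:14861001-14862000 among the lower. V:11912001-11913000 was at 35.7, 56.0 and 15.1 in hrde-1 of generation 3 and 62.0, 83.0 and 57.7 in generation 4. Without the N2 cytoplasmic pair in the shared fit the count was 5, and without both cytoplasmic pairs it was 14. The fit uses 1 spread for both genotypes.

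The generation difference was not shown to differ between the genotypes. No window passed the test of the difference (0%), with 881 at an unadjusted p under 0.05 in limma and a lowest adjusted p of 0.837. Of the 36 windows called over all pairs, 31 changed more in N2 than in hrde-1, with medians of -0.98 and -0.72 on the log2 scale. The difference was also larger in size in N2 in 10003 of all 16771 tested windows (59.6%), and the N2 mean includes the pair with the widest spread. Without both cytoplasmic pairs the counts were 25 of 36 and 8438 of 16771 (50.3%). Over all tested windows the mean differences of N2 and hrde-1 had a Pearson correlation of 0.18 across windows, which are not independent replicates, and 54.1% had the same sign. Their medians were 0.11 in N2 and -0.05 in hrde-1. Median scaling of the libraries moved the median of the genotype difference from -0.15 to -0.02, and it moved the median of whole RNA from 0.11 to -0.01. Such a shift was nearly fixed in advance, since this scaling gives all libraries the same median. Windows with opposite signs include V:11976001-11977000, at 56.0, 66.1 and 87.1 in N2 of generation 3 and 102, 108 and 107 in generation 4. In hrde-1 it was at 85.0, 77.2 and 122 and then 58.3, 44.7 and 69.2 (difference of the log2 differences -1.33, SE 0.25). V:10251001-10252000 (-1.72, SE 0.40), V:412001-413000 (1.45, SE 0.35) and II:11872001-11873000 (1.27, SE 0.31) also stood at the top of that list, with V:10021001-10022000 and its neighbour V:10022001-10023000. All 6 had a limma adjusted p of 0.837.

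**Figure D4:**
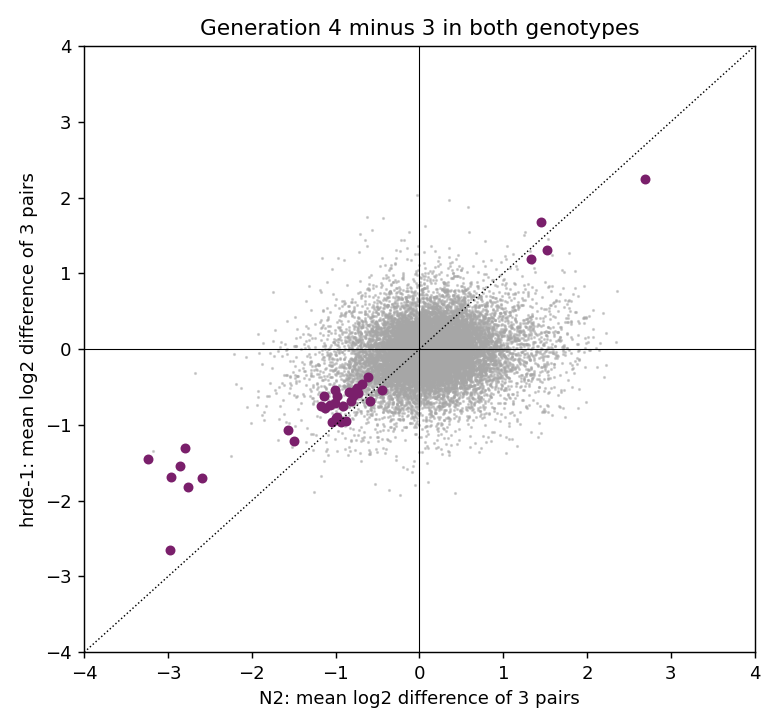
Mean log2 difference of 3 pairs, generation 4 minus generation 3, in N2 (horizontal axis) and hrde-1 (vertical axis) for 16771 tested windows in grey, with the 36 windows called over all pairs in purple and a dotted line where both are equal. The grey cloud has little slope (Pearson 0.18), and the purple points were picked for a shared direction, so their position in the lower left and upper right is not a separate result.

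No window passed in whole RNA (0%), in nuclear RNA (0%) or in cytoplasmic RNA (0%), each from 2 pairs, nor in the test of a difference among the fractions (0%). At an unadjusted p under 0.05, limma gave 409 windows in whole, 534 in nuclear and 2576 in cytoplasmic RNA and 688 for the difference among fractions. Their lowest adjusted p values were 0.465, 1, 0.0601 and 0.982. Of these windows, 276 were higher and 133 lower in whole RNA, 288 higher and 246 lower in nuclear RNA, and 813 higher and 1763 lower in cytoplasmic RNA. The call depends on which pair stays in the fit: with the N2 cytoplasmic pair left out 402 windows passed in cytoplasmic RNA, and with the hrde-1 cytoplasmic pair left out 3620 passed, in each case on 1 pair that is assumed to vary like the other fractions. Cytoplasmic RNA was the noisiest. The SD of the log2 difference over tested windows was 1.22 in the N2 cytoplasmic pair, 0.70 in the hrde-1 cytoplasmic pair and 0.51 to 0.59 in the other 4 pairs.

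The 32 lower windows had median log2 differences of -0.65 in whole, -0.79 in nuclear and -1.14 in cytoplasmic RNA, beside 0.11, 0.04 and -0.07 over all tested windows. The fall was larger in cytoplasmic than in nuclear RNA in 28 of 32, and over all tested windows the cytoplasmic difference was the larger in size in 10791 of 16771. Their median nuclear minus cytoplasmic log2 level was 0.74, beside 0.77 in the 4 higher windows, 0.49 in the 28 uncalled neighbours and 0.18 over all tested windows. Differences of separate pairs were weakly related across windows, with Pearson correlations of 0.04 to 0.18 over 16771 windows.

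None of the 36 windows carries the mark GRTS or GRH, which the deposited table gives to some windows; in this field the names stand for transcriptional silencing and heterochromatin under germline nuclear RNAi. How the authors chose these windows is not given, and the choice may rest on these libraries. Of 191 GRTS windows 48 were tested and of 215 GRH windows 52, and no member of either list passed in any comparison. Over all pairs 0.215% of all tested windows passed, so lists of this size would hold hardly any call. Their lack of calls therefore says little in either genotype. Most of the tested GRTS windows passed the limit on the mean through hrde-1. In N2 the mean was below 10 in 47 of the 48 and in 21 of the 52 GRH windows, beside 674 of all 16771 tested windows, while in hrde-1 no window of either list was below it. In 37 of the 48, at least 1 N2 pair was at the floor in both generations, so the N2 pairs can hardly show a difference there and the absence of calls says little about N2. With that limit, the median log2 difference was -0.04 over the 48 GRTS windows, 19 of them above 0, and 0.04 over the 52 GRH windows, 27 of them above 0.

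Mean coverage over all 191 GRTS windows was 1.08, 2.13 and 0.41 in whole, nuclear and cytoplasmic RNA of N2 in generation 3 and 1.03, 2.59 and 0.53 in generation 4. The 2 cytoplasmic values rest on 13 and 26 read equivalents. In hrde-1 it was 11.1, 27.4 and 8.67 in generation 3 and 11.7, 26.3 and 6.35 in generation 4. Each fraction of hrde-1 lay above the same fraction of N2 in both generations, by 11.3, 13.5 and 27.5 times in generation 3 and by 12.5, 10.5 and 14.5 times in generation 4. The choice of GRTS windows may rest on these libraries, so this direction is not a separate result. The generation ratio of the GRTS mean was 0.951, 1.23 and 1.38 in N2 and 1.05, 0.959 and 0.730 in hrde-1, so no direction was shared by the 3 pairs of either genotype. Over the tested GRTS windows alone the mean ratio of N2 was 0.980 in place of 1.185.

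GRH windows had 5.08, 8.04 and 2.80 in N2 and 9.38, 15.6 and 8.94 in hrde-1 in generation 3, and 5.20, 8.91 and 3.29 and then 10.3, 13.6 and 7.11 in generation 4. The generation ratio was 1.02, 1.11 and 1.18 in N2 and 1.09, 0.873 and 0.793 in hrde-1, so the nuclear and cytoplasmic pairs of the genotypes moved in opposite directions and the whole pairs did not. Their ratio of hrde-1 to N2 was 1.87, 1.95 and 3.28 in generation 3 and 1.99, 1.53 and 2.20 in generation 4. With 1 library per genotype, fraction and generation these ratios carry no test. The choice of GRH windows may rest on these libraries too, so a higher level in hrde-1 is not a separate result. The most abundant tested GRTS windows were V:8829001-8830000 and V:8871001-8872000, whose values are close to each other. Both held 2.39 in N2 cytoplasmic RNA of generation 3, less than 1 step (4.58) above the floor. They may share reads, which was not tested, so they may not be separate observations. The first was at 8.48, 9.53 and 2.39 in N2 of generation 3 and 3.71, 3.78 and 0.1 in generation 4, and at 109.6, 89.7 and 121 and then 95.4, 89.4 and 78.4 in hrde-1. It did not pass over all pairs (log2 difference -0.77, SE 0.25, limma adjusted p = 0.306). IV:915001-916000, also GRTS, had 38.4, 176 and 7.58 in hrde-1 of generation 3 and 50.8, 195 and 13.9 in generation 4, with 0.1 to 3.26 in N2. A GRH window expressed in both genotypes, II:7040001-7041000, was at 25.3 to 60.1 in generation 3 and 41.0 to 62.7 in generation 4, ranges that overlapped.

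**Figure D5:**
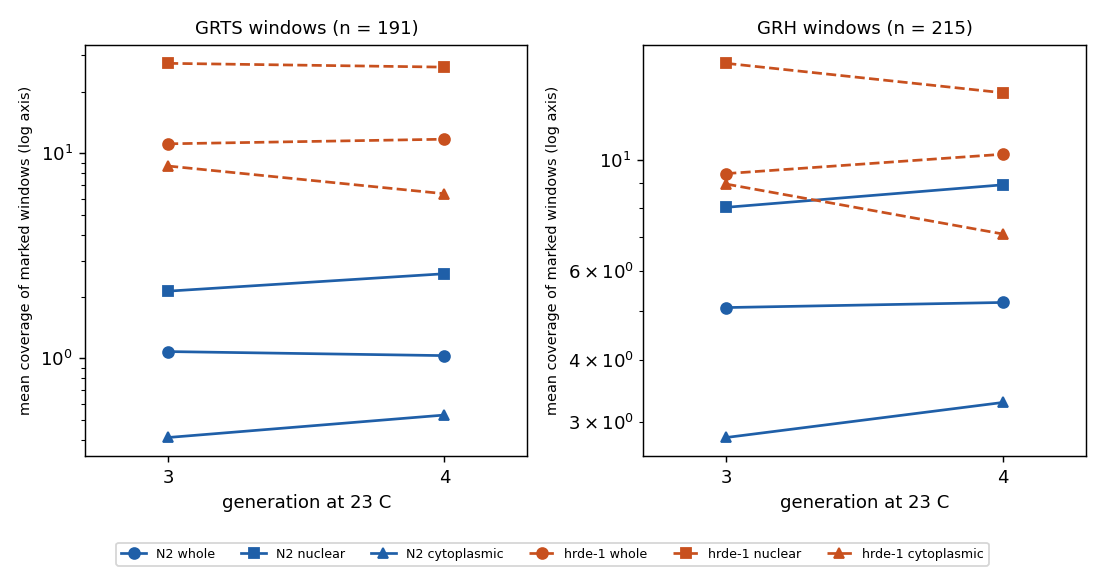
Mean coverage (log axis) of the 191 GRTS and the 215 GRH windows in generation 3 and generation 4, with 1 line per pair, solid for N2 and dashed for hrde-1. In GRTS windows the lines move little beside the gap between the genotypes, and each hrde-1 point lies above the N2 point of its fraction and generation in both panels. The marked windows may have been chosen from these libraries, so that gap is not a separate result.

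No chromosome changed its share of the coverage past the test, which 6 pairs could hardly pass after adjustment. The share of coverage on chromosome III was 18.4% in generation 3 and 18.7% in generation 4 on average and higher in 5 of 6 pairs, and that on chromosome X was 13.2% and 12.7% and lower in 5 of 6. The mean differences were 0.19, 0.20, 0.34, -0.09, -0.09 and -0.54 percentage points for chromosomes I, II, III, IV, V and X. In exact sign-flip permutation tests over 6 pairs, two-sided, the p values were 0.469, 0.156, 0.0938, 0.219, 0.188 and 0.344, and between 0.328 and 0.469 after Benjamini-Hochberg adjustment over 6 tests. The smallest p this permutation test allows is 0.0312 before adjustment. After adjustment no chromosome could pass 0.05 unless several were at that minimum, so the absence of a passing chromosome says little. The hrde-1 cytoplasmic pair was the exception on chromosomes II, III, V and X. On chromosome X the share went from 18.3% to 15.6% in N2 cytoplasmic RNA and from 12.7% to 13.4% in hrde-1 cytoplasmic RNA. Calls by chromosome were 3 of 3660 tested windows on I (0.082%), 6 of 2827 on II (0.212%) and 5 of 3360 on III (0.149%). They were 10 of 2925 on IV (0.342%), 7 of 2539 on V (0.276%) and 5 of 1460 on X (0.342%), beside 0.215% of all tested windows. The median log2 difference was -0.05 on X, where 44.3% of windows were above 0, and 0.02 to 0.06 on the other chromosomes. The outer parts of the chromosomes, 25% of the length at each end, had 17 lower and 0 higher calls among 6047 tested windows (0.281%). The middle parts had 15 lower and 4 higher among 10724 (0.177%). No window passed among 680 tested in the piRNA domains of chromosome IV (0%, beside 0.215% of all tested windows), where the median was 0.03. With so low a share over all windows, a list of 680 would hold few calls, so this absence says little.

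None of the 5 most abundant windows passed. In IV:8264001-8265000, with the highest mean, coverage was 3012, 3392 and 6239 in whole, nuclear and cytoplasmic RNA of N2 in generation 3 and 3376, 3332 and 5006 in generation 4. In hrde-1 it was 3069, 3370 and 4232 and then 3232, 3565 and 4376. The log2 difference was 0.00 (SE 0.07), and those of the next 4 windows, IV:8265001-8266000, IV:8263001-8264000, IV:8262001-8263000 and X:5101001-5102000, were -0.03, -0.03, -0.09 and -0.11, each with an SE of 0.07 to 0.08. In each of these 5 windows the lowest of the 6 pair differences was in the N2 cytoplasmic pair.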

How the data were processed

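Per the labels' protocols, nuclei were pelleted through a sucrose cushion, TRIzol was used for RNA, and rRNA was digested with RNase H, with no selection for poly(A). The deposited values are the authors' normalized coverage, a signal with a floor of 0.1. Bowtie 0.12.7 was used, per the submitters' processing notes. Not given in the sources used here: the build, strand, scaling and handling of reads with several positions. Because the values are coverage and not whole reads, no count model was used.

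Windows with a mean of at least 10 were tested with limma 3.58.1 in R 4.3.3 (lmFit, trended eBayes), on log2(coverage + 1) and two-sided, with the pair as a block and 5 residual degrees of freedom. Fits per genotype and per fraction shared 1 spread, with 4 and 3. The pseudocount understates changes of low windows. Fold values are ratios of means above the floor. Each pair joins the 2 generations of a genotype and fraction, from the labels. Permutation tests ran in Python 3.11.15, and the fits were tested on simulated data with planted log2 changes of 2 in either direction. That simulation gave each library independent noise, so it could not test smaller changes or error shared by fractions of 1 culture. Read equivalents are the value above the floor divided by the step. Of values from the floor up to 40, 85.0% to 92.1% lay within 0.0065 of whole steps. Intervals and floors from reads cover counting error only, and none is given for normalized coverage.

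Windows were named by a rule of size: over all pairs up to 12 called per direction, fewer per subset, then the smallest p, and the highest means. The windows, members and lists were chosen with earlier results of these data known, and further called windows were chosen after their values were seen. Alternatives changed the pseudocount, minimum, scaling, weights, depth, pairs and block.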

Additional observations from a re-analysis of the deposited data

Results flagged for a closer look

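Of 79 sets of 6 pair differences examined (called windows, other named windows and chromosome shares), 12 held 1 pair far from the others by Dixon's criterion, which chance alone marks in about 1 of 20. In 10 of the 12 that pair was N2 cytoplasmic RNA, which has the fewest reads in both generations. The part of depth in this was not tested. Among called windows on the log2 scale, the N2 cytoplasmic difference was -1.32 in II:4870001-4871000, where the other 5 pairs lay between -0.68 and -0.33. It was -1.41 in III:13604001-13605000, -1.72 in IV:1721001-1722000, -1.87 in IV:1722001-1723000, -1.57 in IV:10216001-10217000 and -1.82 in V:13198001-13199000, against -1.0 to -0.37 in the other pairs of these 5 windows. Among the most abundant windows it was -0.30 in IV:8265001-8266000, -0.37 in IV:8263001-8264000 and -0.48 in IV:8262001-8263000, where the others lay between -0.11 and 0.14. The chromosome X share moved by -2.75 percentage points in that pair and by -0.54 to 0.72 in the others. In III:13605001-13606000, the N2 whole difference of -0.40 was the smallest fall, beside -0.72 to -0.63. In the uncalled window V:11912001-11913000, hrde-1 cytoplasmic RNA had a difference of 1.87, beside 0.18 to 0.78.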

How the results depend on the processing

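No called window changed direction in any setting, but the number of calls changed with most. Over all pairs, 36 windows passed. The count was 18 with a pseudocount of 0.1 and 93 with 10, and 23 with a minimum mean of 1 and 125 with 50. With no filter on low windows it was 0. It was 91 with median scaling (7 higher, 84 lower), 138 with quantile normalization, 18 after thinning to equal depth and 208 with array weights. Leaving out 1 pair gave 0 to 66. Without the pair as a block it was 59, which holds all 36, and without both cytoplasmic pairs, added after seeing the data, 149.

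In N2, 6 windows passed. The count was 41 with a pseudocount of 10, 55 with a minimum of 50, 0 with no filter, 104 with median scaling (6 higher, 98 lower), 121 with quantile normalization, 24 after thinning, 95 with array weights and 45 without both cytoplasmic pairs. In hrde-1 the count of 0 became 1 with a pseudocount of 10, 4 with quantile normalization, 1 after thinning, 3 with array weights, 14 without both cytoplasmic pairs and 0 to 5 with a pair left out. With array weights, whole RNA had 11 calls and nuclear RNA 13. Leaving out a pair gave 0 to 6 in whole, 0 to 16 in nuclear and 0 to 3620 in cytoplasmic RNA. In cytoplasmic RNA the count was 28 with a pseudocount of 10, 85 with a minimum of 50 and 25 with quantile normalization. The tests between genotypes and among fractions gave 0 calls in every setting that was run for them. Over the 36 windows, 601 values in other settings were computed: 342 passed and 259 did not. The number that changed direction was 0, which most of these settings could not have altered. The cause of these changes was not tested, except that each fit with a pair left out has fewer libraries. A coverage of 10 rested on as few as 2.16 reads, so the precision of windows near the minimum is limited by counting.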
